A study of Mus musculus with 6 samples.

Results

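Claudins seal the space between epithelial cells, and the messenger RNA of 8 of them was examined together with that of 2 partner proteins in the distal colon of mice with and without TNFR2. The genes were chosen by name, as Cldn1, Cldn2, Cldn3, Cldn4, Cldn7, Cldn8, Cldn15, Cldn23, Ocln and Tjp1, and every row of the deposited table with 1 of these symbols was taken. Each symbol had a single row, so that 10 of 23108 named rows were members. All 10 reached the minimum of 0.5 FPKM (read fragments scaled to transcript length and library size) that was set on the mean of the 6 libraries, and entered the test among 14564 rows.

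The wildtype group held 3 male C57Bl/6 mice aged 8 weeks. The knockout group held 3 TNFR2-/- males of the same age, labelled with the same strain. TNFR2 is the second receptor for tumor necrosis factor and is encoded by Tnfrsf1b. Each library came from the distal colon of 1 mouse, with no cell type sorted as far as the labels say, and neither the deleted part of the gene nor any treatment is given in the sources used here. Tnfrsf1b measured 7.49, 8.20 and 8.17 FPKM in wildtype mice and 1.17, 1.12 and 0.924 FPKM in TNFR2-/- mice, as their labels imply.

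A tight junction is a belt of strands near the apical end of neighbouring epithelial cells. Claudins are the small membrane proteins from which these strands are built, and the set of claudins that a cell makes decides which ions pass between cells. Most claudins of the colon, among them Cldn1, Cldn3, Cldn4 and Cldn8, are known as sealing proteins, while Cldn2 and Cldn15 form channels for small cations and water. Occludin, encoded by Ocln, lies in the same strands, and the scaffold protein ZO-1, encoded by Tjp1, ties strands to the actin cytoskeleton. Tumor necrosis factor is known to loosen the junctions of gut epithelium through myosin light chain kinase, encoded by Mylk, which is the background to asking whether loss of one of its receptors alters junction genes.

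The libraries differed in the expression of genes typical of skin and skeletal muscle, and how much of these tissues they held was not measured. Summed over 21 skin genes, expression was 1439, 664 and 1524 FPKM in wildtype mice and 174, 736 and 1305 FPKM in TNFR2-/- mice, and 21 of 21 had a lower mean in the knockout. Sfn, a gene of this list, measured 122, 151 and 146 FPKM in wildtype mice and 98.2, 89.2 and 143 FPKM in TNFR2-/- mice. It made up most of the sum in knockout library 1. Summed over 9 skeletal muscle genes it was 1870 to 6162 FPKM in wildtype mice and 113 to 1419 FPKM in TNFR2-/- mice, with 9 of 9 lower. No gene of either list was at 0 in every library. The 12 genes of gut epithelium that serve as an epithelial reference summed to 3189, 4572 and 3754 FPKM in wildtype mice and 4277, 3209 and 4132 FPKM in TNFR2-/- mice, and Krt19, a keratin of simple epithelia, alone measured 1726 to 2585 FPKM. Skin, too, makes Cldn1 and Cldn4, and the part of these tissues in the results was not tested. Relative depth, as judged from the steps between low values, ran from 0.736 to 1.10 of that of wildtype library 1.

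No member passed the test between genotypes. Of the 10 genes, 0 were called by limma at a Benjamini-Hochberg adjusted p under 0.05, where 42 of all 14564 tested genes (0.288%) were called, 0.185% higher and 0.103% lower in the knockout. Cldn4 alone had an unadjusted p under 0.05, 1 of 10 members beside 16.2% of all tested genes, or 9.91% counting those lower in the knockout. The authors' deposited table marks 0 of the 10 as significant, and 1.04% of its named rows. Means were higher in the knockout for 6 members and lower for 4, beside 57.4% lower among all tested genes, and the median of their log2 differences was 0.04, beside -0.03 over all tested genes. The values of the genotypes had no overlap for 1 member, Cldn4, and for 21.8% of tested genes (9.3% higher and 12.5% lower in the knockout), so that neither count stands above its background.

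**Figure D1:**
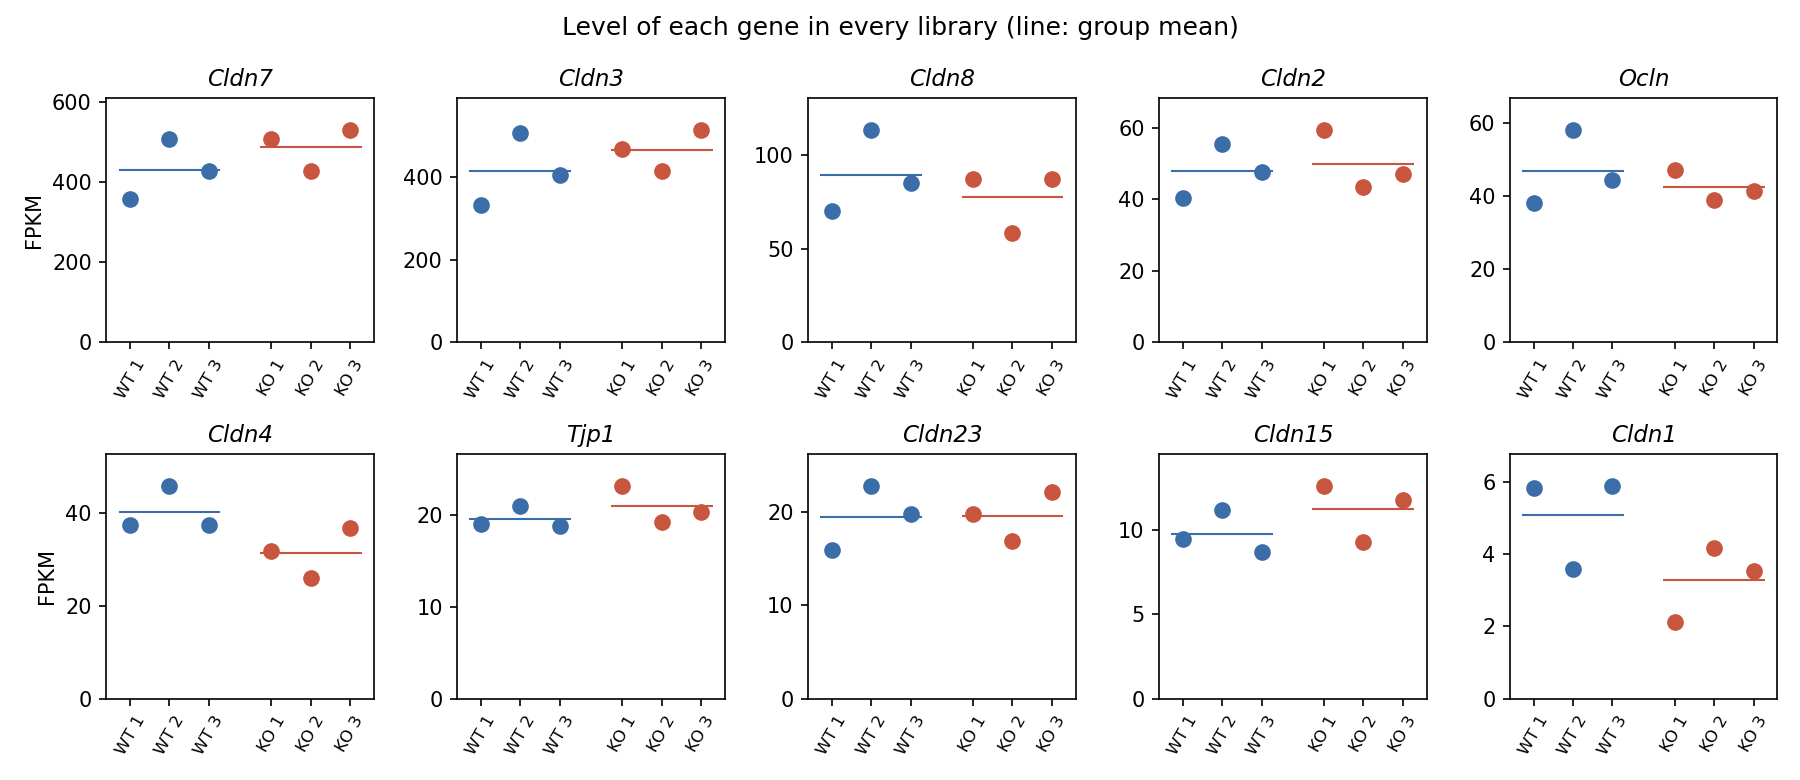
FPKM of each of the 10 genes (vertical axes from 0) in the 3 wildtype (WT, blue) and 3 knockout (KO, red) libraries, with a line at each group's mean. Cldn4 is the panel in which all 3 knockout points lie below all 3 wildtype points, and wildtype library 2 is the highest wildtype point in every panel but that of Cldn1.

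Levels spanned a wide range across the family. Cldn7, which is needed for an intact gut lining, and Cldn3 stood far above the rest, with means of 458.5 and 439.8 FPKM over the 6 libraries, above 98.6% and 98.5% of tested genes. Cldn8, a sealing claudin of the distal colon, followed at 83.9 FPKM, then Cldn2 at 48.9, Ocln at 44.6 and Cldn4 at 35.7 FPKM. Tjp1 averaged 20.2 FPKM, Cldn23, a claudin of the surface epithelium, 19.5 FPKM, Cldn15 10.5 FPKM and Cldn1 4.19 FPKM. FPKM are scaled to transcript length, so these levels can be set side by side. Within single libraries the order was steady: 7 of the 9 neighbouring pairs in it kept their order in 6 of 6 libraries. Cldn2 exceeded Ocln in 5 of 6 libraries and Tjp1 exceeded Cldn23 in 3 of 6, so that the latter pair had no steady order. Cldn7 and Cldn3 differed by less than the spread between mice, although Cldn7 was the higher of them in every library.

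The sealing claudins with the highest expression had slightly higher means in the knockout, and the differences lay within the spread between mice. Cldn7 (chromosome 11, 69964779 to 69967886, mm10) measured 356, 507 and 426 FPKM in wildtype mice and 506, 426 and 530 FPKM in TNFR2-/- mice. The groups overlapped widely, with wildtype library 2 above knockout library 1. The log2 difference of Cldn7, knockout minus wildtype on the log2(FPKM + 1) scale, was 0.19 ± 0.15 (SE, n = 3 each; 95% interval -0.16 to 0.53; limma, Benjamini-Hochberg adjusted p = 0.54). Cldn3 (chromosome 5, 134986214 to 134987476) measured 333, 507 and 405 FPKM against 467, 413 and 514 FPKM, with the lowest value in wildtype library 1 and the highest in knockout library 3. Its log2 difference was 0.18 ± 0.16 (95% interval -0.20 to 0.56, limma adjusted p = 0.60), an interval that reaches from 0.869 to 1.47 times wildtype. Cldn3 and Cldn7 had the most similar profiles of the 45 pairs of members: Cldn3 stood at 0.923 to 0.999 times Cldn7 in all 6 libraries.

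Cldn4 was the member whose groups separated. Its transcript measured 37.3, 45.7 and 37.2 FPKM in wildtype mice and 31.7, 25.8 and 36.6 FPKM in TNFR2-/- mice. Knockout library 3 came close to the lowest wildtype value without reaching it. The mean was 40.1 ± 4.85 FPKM in wildtype mice and 31.4 ± 5.38 FPKM in TNFR2-/- mice (SD, n = 3 each), 78.3% of wildtype. The log2 difference was -0.35 ± 0.14 (SE; 95% interval -0.68 to -0.02), with an unadjusted p of 0.042 and a Benjamini-Hochberg adjusted p of 0.30 in limma. It kept its sign in 15 of 15 fits, but its size rested in part on single libraries: leaving out 1 library moved it between -0.46, without knockout library 3, and -0.22, without knockout library 2, and it was -0.25 without wildtype library 2. With the skin genes as a covariate it was -0.37. Adjusted p lay between 0.28 and 0.87 over these fits. In the authors' deposited table its log2 fold change is -0.35, with a p-value of 0.546.

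Cldn3 and Cldn4 are neighbours on chromosome 5, which makes their unlike values easy to set against each other. Both are single-exon genes, on opposite strands and 39279 bases apart. The deposited table gives both, together with Wbscr25, the locus from 134945123 to 135001350, and how reads were divided among them was not given in the sources used here. Within a library Cldn3 stood at 8.92, 11.1 and 10.9 times Cldn4 in wildtype mice and at 14.7, 16.0 and 14.0 times in TNFR2-/- mice. These ratios did not overlap. Ratios not overlapping between genotypes are common in these data: they occurred for 13 of 45 pairs of members (28.9%) and for 23.1% of all pairs of tested genes. On that scale Cldn4 was in 6 of the 13 pairs. Its ratio did not overlap for 45.6% of the 14563 other tested genes, beside 4.67% to 19.9% for the other members. Since the values of Cldn4 themselves did not overlap, this share largely restates that separation and is no further result.

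The promoters of both neighbours, of Cldn1, the member that varied most, and of the channel claudin Cldn2 are shown so that the sequences before the starts of these genes can be compared. Each is the 250 bases before the transcription start in RefSeq (GRCm38.p6, the assembly of mm10), written 5′ to 3′ on the gene's strand. Capitals mark matches to any of 7 short motifs on either strand.
Cldn3 (chr5:134985964-134986213, plus strand): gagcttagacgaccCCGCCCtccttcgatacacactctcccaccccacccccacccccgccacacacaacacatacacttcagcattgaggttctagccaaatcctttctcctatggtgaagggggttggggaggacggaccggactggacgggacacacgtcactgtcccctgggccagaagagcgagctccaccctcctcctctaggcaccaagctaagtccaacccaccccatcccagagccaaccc
Cldn4 (chr5:134946935-134947184, minus strand): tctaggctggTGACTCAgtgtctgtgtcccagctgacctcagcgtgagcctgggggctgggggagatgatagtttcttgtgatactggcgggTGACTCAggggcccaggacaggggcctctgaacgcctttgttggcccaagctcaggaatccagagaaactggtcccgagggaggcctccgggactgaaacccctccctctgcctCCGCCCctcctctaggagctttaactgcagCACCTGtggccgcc
Cldn1 (chr16:26371840-26372089, minus strand): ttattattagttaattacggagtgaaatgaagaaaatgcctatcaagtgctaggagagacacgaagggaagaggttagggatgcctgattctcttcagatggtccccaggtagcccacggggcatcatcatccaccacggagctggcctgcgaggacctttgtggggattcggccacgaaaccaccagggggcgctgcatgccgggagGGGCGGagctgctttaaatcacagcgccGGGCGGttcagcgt
Cldn2 (chrX:139800558-139800807, plus strand): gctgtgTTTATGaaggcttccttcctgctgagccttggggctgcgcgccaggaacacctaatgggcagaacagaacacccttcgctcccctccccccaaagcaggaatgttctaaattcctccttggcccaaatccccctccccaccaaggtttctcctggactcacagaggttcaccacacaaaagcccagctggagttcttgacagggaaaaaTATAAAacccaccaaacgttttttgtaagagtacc

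Cldn4 held the AP-1 motif TGANTCA at 2 places, 1 GC box (GGGCGG) and 1 Snail E-box (CAGGTG), whereas the window of Cldn3 held 1 GC box alone. Cldn1 held 2 GC boxes. Cldn2 held a TATA box (TATAAA) between 35 and 30 bases before the start and the CDX motif TTTATG farther upstream, counted from the RefSeq start. The nearest GENCODE transcript of Cldn2 starts 20 bases downstream of that start, and the locus of the deposited table begins upstream of it, at 139792734. In 32851 promoter windows of the same length, AP-1 occurred in 6.75%, the GC box in 32.7%, the Snail E-box in 17.2%, the TATA box in 12.4% and the CDX motif in 10.8%. Both strands were searched. The Grainyhead-like motif AACCNGTT (1.79% of windows) and the kappaB motif (0.356%) matched none of the windows shown. A match describes letters in a window and is not evidence of a bound factor. RefSeq windows were matched for 8 of the 10 members, all but Cldn8 and Cldn23.

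The remaining sealing claudins did not pass either. Cldn8 (chromosome 16, 88560826 to 88563183) measured 70.5, 114 and 85.2 FPKM in wildtype mice and 87.6, 58.7 and 87.6 FPKM in TNFR2-/- mice. Its groups overlapped, and after Cldn1 it was the member with the widest spread, 1.94-fold between the lowest and the highest library. The log2 difference of Cldn8 was -0.20 ± 0.22 (SE, n = 3 each; 95% interval -0.73 to 0.33; limma adjusted p = 0.67), and it was -0.02 without wildtype library 2 and -0.01 without knockout library 2. Cldn23 (chromosome 8, 35824709 to 35826559) had nearly equal means of 19.5 ± 3.45 and 19.6 ± 2.61 FPKM (SD, n = 3 each), and its interval, -0.33 to 0.36, leaves room for changes of up to about 1.28-fold either way.

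Cldn1 (chromosome 16, 26356645 to 26371839), a sealing claudin that is abundant in skin, varied most between libraries. It measured 5.82, 3.57 and 5.88 FPKM in wildtype mice and 2.13, 4.18 and 3.54 FPKM in TNFR2-/- mice, a 2.76-fold span. Wildtype libraries 1 and 3 were highest and knockout library 1 was lowest, as in the summed skin genes given above, while wildtype library 2 lay among the knockout values. Knockout library 3 departed from this order, with 1305 FPKM of skin genes against 736 FPKM in knockout library 2 but the lower Cldn1 of the pair. Smooth muscle genes, 8 of 8 lower in the knockout and none at 0, summed to 10230, 6405 and 9103 FPKM and to 5896, 8117 and 7965 FPKM in the same libraries, and the part of either tissue in the Cldn1 values was not tested. The log2 difference was -0.51 ± 0.23 (SE, n = 3 each, 95% interval -1.07 to 0.04, limma adjusted p = 0.33) and -0.21 with the skin genes as a covariate. It was 0.08 without wildtype libraries 1 and 3, highest in the skin list, and knockout library 1, lowest in it. That setting leaves a lone wildtype library and no test. The libraries left out also held the highest values and the lowest value of Cldn1 itself. A smaller difference therefore follows from the choice of libraries, and the value cannot tell what part skin had. In the authors' deposited table Cldn1 has the lowest p-value of the members, 0.0197, with an adjusted p-value of 0.549. Of 14563 other tested genes, Sphk1, sphingosine kinase, and Gm765 were among those with profiles most like that of Cldn1 over the 6 libraries, differing from it by 0.038 and 0.062 (root mean square of centred log2 values). Sphk1 measured 6.23, 3.88 and 5.93 FPKM in wildtype mice and 2.45, 4.48 and 3.77 FPKM in TNFR2-/- mice. For Cldn8, the member next in range, the nearest profiles were those of E2f2, a cell cycle transcription factor, Tssk6, a testis kinase, and Plek2, a pleckstrin, at 0.062, 0.075 and 0.079.

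Channel-forming claudins showed no difference beyond the spread between mice. Cldn2 (chromosome X, 139800808 to 139811386), the cation channel of leaky epithelia, measured 40.3, 55.6 and 47.7 FPKM in wildtype mice and 59.5, 43.4 and 47.2 FPKM in TNFR2-/- mice. The highest value was in knockout library 1 and the lowest in wildtype library 1, and the groups overlapped. Its log2 difference was 0.06 ± 0.15 (SE, n = 3 each; 95% interval -0.30 to 0.42; limma adjusted p = 0.87). Cldn15 (chromosome 5, 136967869 to 136975845), the other cation channel of the gut, measured 9.50, 11.2 and 8.72 FPKM against 12.6, 9.28 and 11.8 FPKM. Its log2 difference was 0.18 ± 0.13 (95% interval -0.13 to 0.49, limma adjusted p = 0.52). Together the 2 channel claudins made up 5.13 ± 0.149% of all claudin FPKM in wildtype mice and 5.07 ± 0.653% in TNFR2-/- mice (SD, n = 3 each).

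Ocln and Tjp1 are no claudins, and both have more exons than any member claudin. Ocln (chromosome 13, 100496504 to 100552718) has 9 exons in its principal GENCODE transcript and measured 38.1, 58.0 and 44.4 FPKM in wildtype mice and 47.0, 38.8 and 41.3 FPKM in TNFR2-/- mice. The log2 difference of Ocln was -0.12 ± 0.16 (SE, n = 3 each; 95% interval -0.49 to 0.25; limma adjusted p = 0.71), and without wildtype library 2, its highest, it was 0.04. Tjp1, on chromosome 7 and with 28 exons, was the steadiest member, at 19.0, 20.9 and 18.7 FPKM in wildtype mice and 23.1, 19.2 and 20.3 FPKM in TNFR2-/- mice. Its highest library exceeded its lowest 1.23-fold, and the interval of its log2 difference, -0.12 to 0.29, was the narrowest of the 10.

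**Figure D2:**
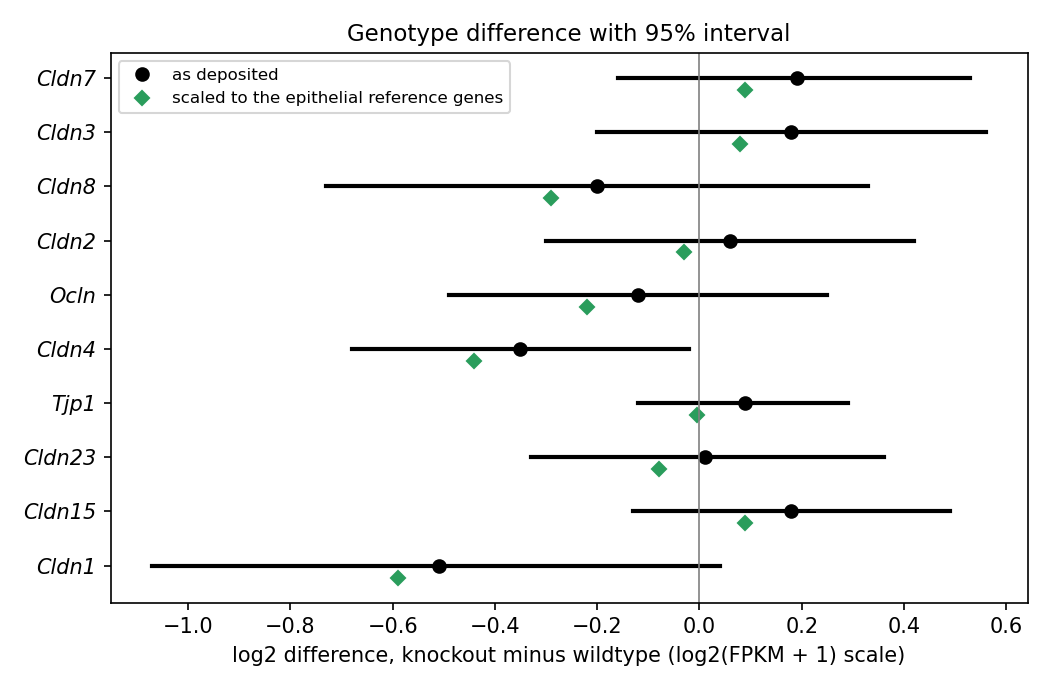
Log2 difference (horizontal axis, knockout minus wildtype, log2(FPKM + 1) scale) for each gene, ordered by level. Black points with bars are the estimates with 95% intervals from limma and green diamonds the estimates after scaling each library to the epithelial reference genes. Only the bar of Cldn4, from -0.68 to -0.02, stays on one side of 0, and its adjusted p was 0.30.

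Member levels moved together between mice of one genotype. Wildtype library 2 was the highest wildtype library for 9 of 10 members, and knockout library 2 the lowest knockout library for 9 of 10. The 9 genes were the same in both cases, all but Cldn1, and 30.7% of tested genes had both features. The epithelial reference genes had the same high and low libraries: relative to their geometric mean, expression of that list was 0.851, 1.16 and 0.913 in wildtype mice and 1.16, 0.850 and 1.12 in TNFR2-/- mice. In whole tissue, a smaller share of epithelial cells and less RNA per epithelial cell cannot be told apart.

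**Figure D3:**
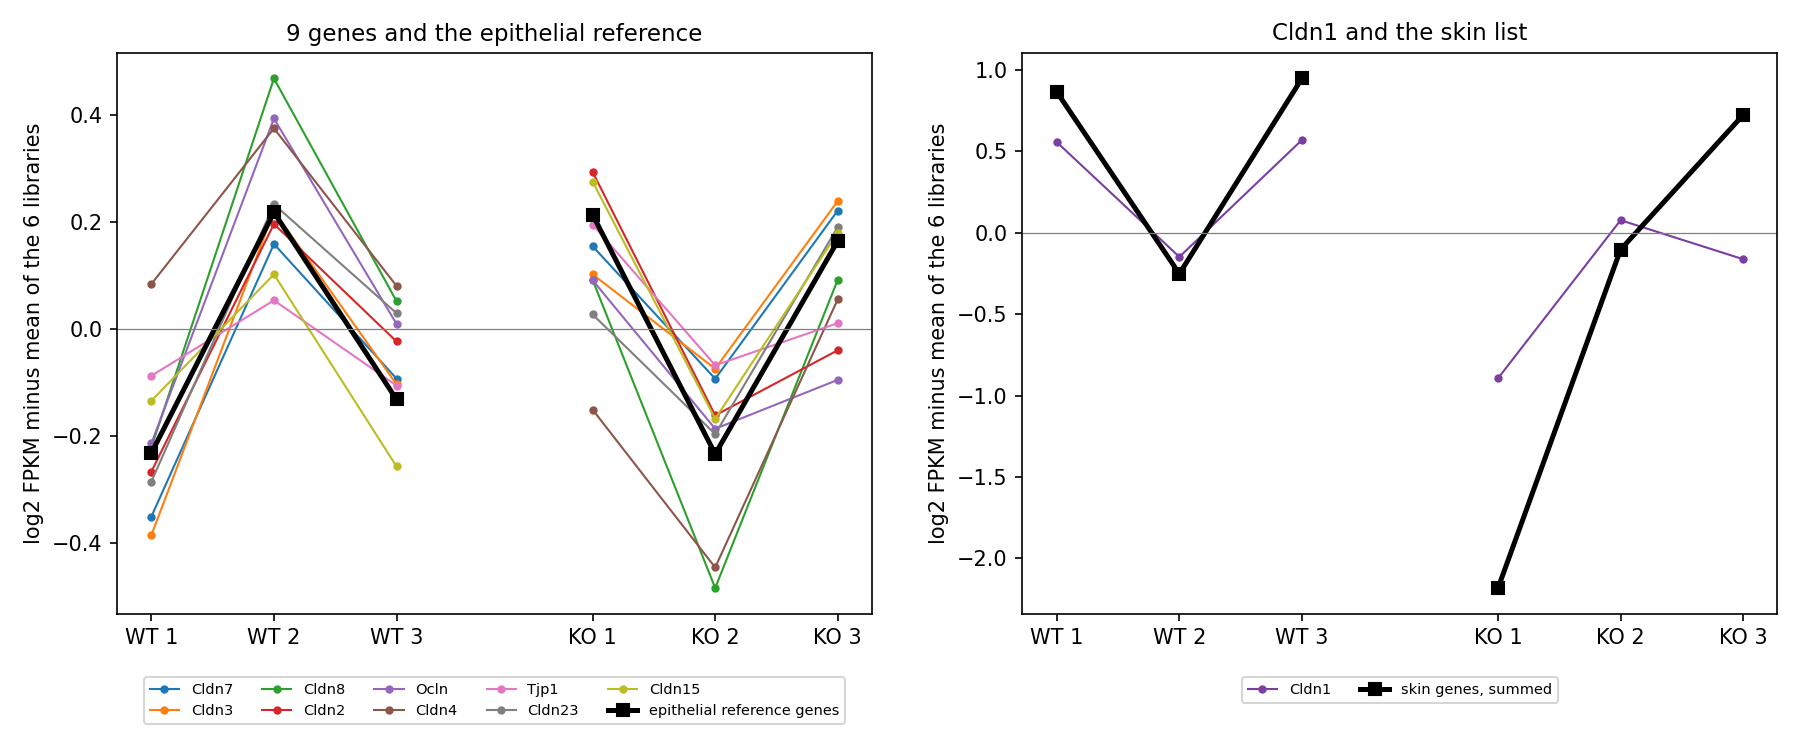
Log2 FPKM minus the mean of the 6 libraries (vertical axis) for 9 of the genes with the epithelial reference genes in black (left), and for Cldn1 with the summed skin genes in black (right), with lines only to guide the eye. Within their genotype the 9 genes are highest in wildtype library 2 and lowest in knockout library 2, while Cldn1 and the skin genes are lowest in knockout library 1.

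When each library was divided by its level of the epithelial reference genes, the span from the lowest to the highest library narrowed for 8 of 10 members, and for 16.7% of all tested genes. Cldn7 narrowed from 1.49-fold to 1.20-fold, Cldn3 from 1.54-fold to 1.24-fold, Cldn8 from 1.94-fold to 1.42-fold and Cldn15 from 1.45-fold to 1.17-fold. Cldn1 widened from 2.76-fold to 3.72-fold, and Tjp1 changed little, from 1.23-fold to 1.26-fold. On this scale 2 of 10 members had groups that did not overlap, both lower in the knockout, beside 7.02% of all tested genes (3.71% lower in the knockout). Scaled Cldn4 was 43.8, 39.3 and 40.8 in wildtype mice and 27.3, 30.4 and 32.6 in TNFR2-/- mice, and scaled Cldn8 was 82.8, 97.7 and 93.3 against 75.5, 69.1 and 78.1. Neither was called: their log2 differences were -0.44 and -0.29 (limma, Benjamini-Hochberg adjusted p = 0.87 each), and the scaling took the median difference of all tested genes to -0.11.

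Shares of the claudin total were led by the same genes in the 6 libraries. Over the 26 claudin rows of the table, the 8 member claudins held 92.4% to 95.2% of the summed FPKM in each library. That total includes the row named Cldn25, at 1.79% to 2.8% of it, which lies where the reference annotation has Cldnd1. Cldn7 held 37.9%, 38.0% and 38.4% in wildtype mice and 40.5%, 40.1% and 40.3% in TNFR2-/- mice. The shares of 4 of the 8 member claudins did not overlap between genotypes, higher in the knockout for Cldn7 and lower for Cldn4, Cldn8 and Cldn23. Divided by the same claudin total, 9.14% of all tested genes did not overlap, but the members make up most of that total, so the shares are not independent of it. Cldn4 held 3.59 ± 0.335% in wildtype mice and 2.59 ± 0.179% in TNFR2-/- mice, and Cldn8 7.90 ± 0.551% and 6.40 ± 0.776% (SD, n = 3 each). The shares were not tested, and since they sum to a fixed total, the rise of one is tied to the fall of others. Cldn3 and Cldn7 together held 74.8 ± 1.40% of claudin FPKM in wildtype mice and 78.8 ± 0.723% in TNFR2-/- mice.

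**Figure D4:**
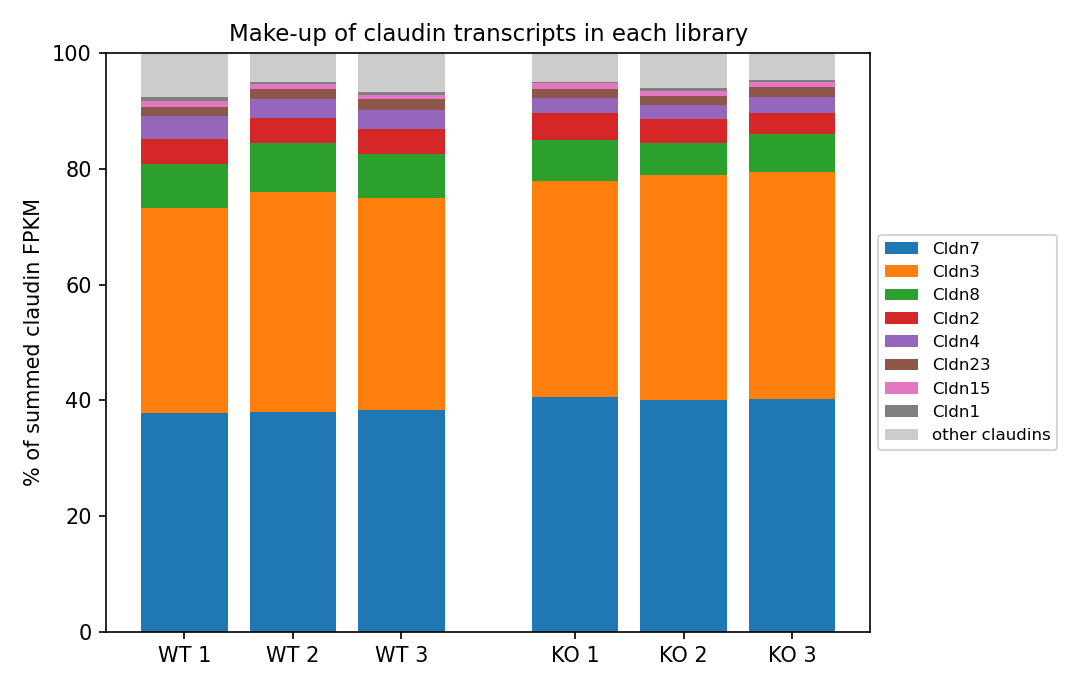
Share of the summed FPKM of all claudin rows (vertical axis, percent) taken by each member claudin and by the other claudin rows together, in each library. Cldn7 and Cldn3 fill 73.3% to 79.4% of every bar.

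Most other claudins were scarce in this tissue, but the row named Cldn25, Cldn12 and Cldn5 averaged 24.3, 20.2 and 17.0 FPKM over the 6 libraries. Of 16 further claudin genes of the list with a row of their own, 7 reached the minimum, and Cldn16 and Cldn18, claudins of kidney and stomach, were listed at 0 in every library. None of the 7 was called by limma, and 2 had an unadjusted p under 0.05, beside 16.2% of all tested genes. Means were higher for 2 and lower for 5, with a median log2 difference of -0.18, beside -0.03 for all tested genes. Cldn5, the claudin of blood vessels, measured 21.8, 13.9 and 24.0 FPKM in wildtype mice and 10.7, 18.2 and 13.4 FPKM in TNFR2-/- mice (limma adjusted p = 0.41). Summed over 8 endothelial genes, 8 of 8 of which had lower means in the knockout, expression was 68.8 to 92.1 FPKM in wildtype mice and 51.5 to 68.7 FPKM in TNFR2-/- mice, none of them at 0 throughout, and their part in the Cldn5 values was not tested. Cldn12 averaged 19.7 ± 3.05 and 20.8 ± 1.86 FPKM (SD, n = 3 each). The row named Cldn25, at 25.4 ± 0.843 and 23.2 ± 1.57 FPKM, lies on chromosome 16 where the reference annotation has Cldnd1. Cldn14, a sealing claudin also known from the inner ear, measured 1.67 ± 0.195 and 2.46 ± 0.971 FPKM, with its highest value, 3.58 FPKM, in knockout library 1. The smallest p of this list were those of Cldn10 and Cldn17. Cldn10, which forms channels for ions in other epithelia, measured 1.94, 0.895 and 1.04 FPKM in wildtype mice against 0.463, 0.739 and 0.451 FPKM in TNFR2-/- mice (limma adjusted p = 0.26), and Cldn17 0.764 ± 0.279 against 0.357 ± 0.207 FPKM (adjusted p = 0.31).

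Further proteins of the tight junction gave a like picture. Of 30 tested genes 0 were called by limma and 6 had an unadjusted p under 0.05, beside 16.2% of all tested genes. Means were higher for 14 and lower for 16, with a median log2 difference of -0.01. Tjp3, a scaffold related to Tjp1, measured 59.9, 83.3 and 68.5 FPKM in wildtype mice and 91.6, 75.4 and 88.7 FPKM in TNFR2-/- mice (limma adjusted p = 0.36), again with wildtype library 2 and knockout library 2 at opposite ends of their groups. F11r, the junctional adhesion molecule of epithelia, averaged 163 ± 16.4 and 161 ± 13.7 FPKM, and Crb3, an apical polarity protein, 55.4 ± 5.46 and 59.1 ± 8.01 FPKM (SD, n = 3 each). Jam2, a junctional adhesion molecule of blood vessels, had the smallest p of the list and measured 8.58, 6.27 and 7.67 FPKM against 4.75, 5.98 and 4.86 FPKM (limma, log2 difference -0.45 ± 0.13, adjusted p = 0.22). Amotl1, an angiomotin relative, measured 8.95 ± 1.56 and 6.54 ± 0.373 FPKM (adjusted p = 0.24), and Csda, a transcription factor that binds ZO-1, 190 ± 11.5 and 164 ± 9.39 FPKM (adjusted p = 0.29).

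Regulators of the junction were not called either, 0 of 23 tested rows by limma, with 2 at an unadjusted p under 0.05, beside 16.2% of all tested genes. Their median log2 difference was 0.09. Mylk, the kinase named above, measured 350, 209 and 304 FPKM in wildtype mice and 195, 290 and 264 FPKM in TNFR2-/- mice (limma adjusted p = 0.69). Mylk is also a gene of smooth muscle, and the 8 smooth muscle genes, none at 0 and 8 of 8 with lower means in the knockout, were lowest in the same libraries, summing to 6405 FPKM in wildtype library 2 and 5896 FPKM in knockout library 1 against 7965 to 10230 FPKM in the other 4; their part in the Mylk values was not tested. Epcam, an adhesion protein that binds Cldn7, averaged 653 ± 107 and 702 ± 70.6 FPKM, Elf3, an epithelial transcription factor, 252 ± 55.2 and 303 ± 26.3 FPKM, and Klf4, a factor of differentiated colonocytes, 245.5 ± 20.3 and 232 ± 30.2 FPKM (SD, n = 3 each). Rock2, a kinase of the actin cytoskeleton, measured 17.3 ± 0.0234 and 15.3 ± 1.10 FPKM (adjusted p = 0.30).

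Adherens junctions and desmosomes, which hold the same cells together below the tight junction, gave 0 calls by limma among 17 tested genes and 0 at an unadjusted p under 0.05, against 16.2% of all tested genes. Means were higher for 8 and lower for 9. Cdh1, which encodes E-cadherin, measured 183, 230 and 196 FPKM in wildtype mice and 241, 185 and 220 FPKM in TNFR2-/- mice (limma adjusted p = 0.76), and as for the claudins wildtype library 2 was the highest of its group and knockout library 2 the lowest. Ctnnb1 and Ctnna1, the catenins that tie cadherin to actin, averaged 239 ± 14.7 and 136 ± 8.17 FPKM in wildtype mice against 238 ± 14.2 and 145 ± 7.37 FPKM in TNFR2-/- mice. Perp, a desmosome protein, averaged 187 ± 13.9 and 170 ± 23.5 FPKM (SD, n = 3 each). The nectin genes Pvrl1 and Pvrl4 had the smallest p, with adjusted p of 0.35 and 0.38 in limma.

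**Figure D5:**
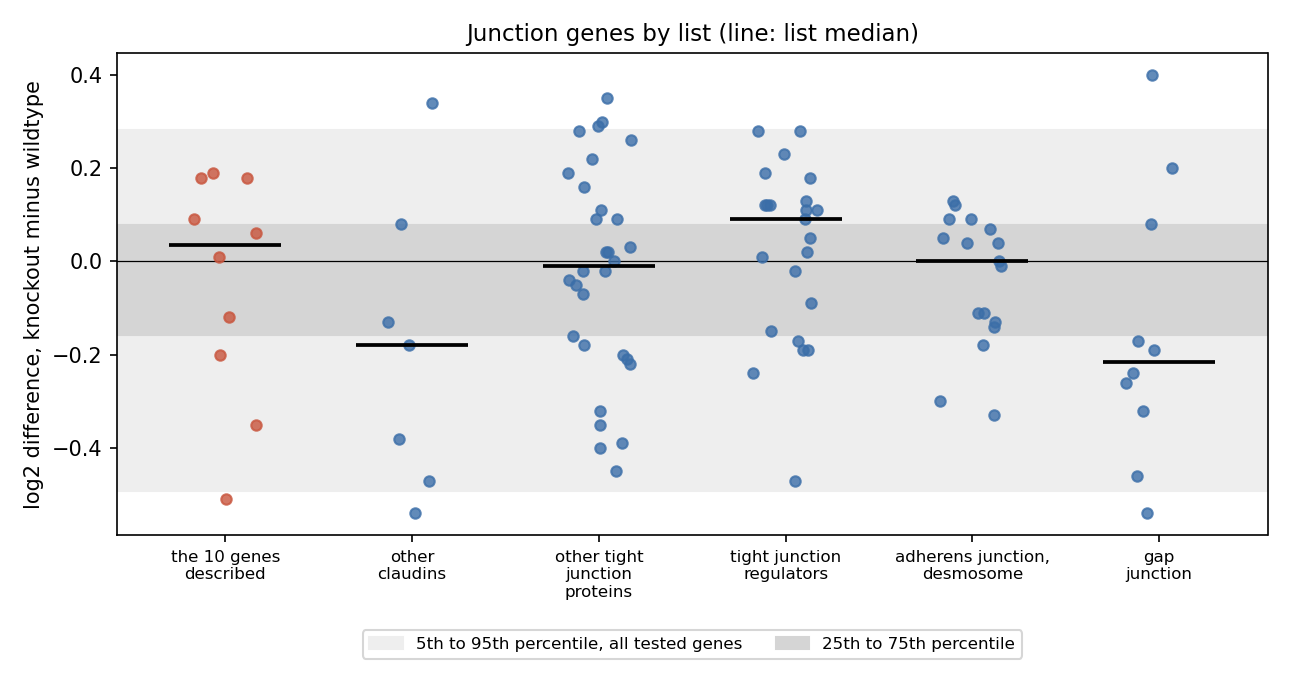
Log2 difference (vertical axis, knockout minus wildtype) of every tested gene in each junction list, 1 point a gene, with the list median as a line. Grey bands hold the middle 50% and 90% of all 14564 tested genes, and list medians lie between -0.21 for gap junction genes and 0.09 for tight junction regulators.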

How the data were processed

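The authors deposited 1 table with FPKM per gene and library, per the file headers, from paired-end reads of 50 bp (stated mean depth 50M reads). Per the series' design text, reads were aligned with Tophat2/Bowtie2, assembled with Cufflinks and tested with Cuffdiff 2, whose log2 fold change, p-value and adjusted p-value the authors deposited too. Per the submitters' processing notes the genome was mm10. Tool releases, gene annotation, strand and the scaling of libraries were not given in the sources used here. FPKM are not counts, so no counting interval was computed, and low genes are least precise.

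Rows with no gene name (6.13% of rows, 17.7% of summed FPKM) were left out. Values were tested as log2(FPKM + 1) with limma 3.58.1 (R 4.3.3; mean-variance trend, robust moderation, no covariates) in all rows with a mean of at least 0.5 FPKM, with Benjamini-Hochberg adjustment over the 14564 rows. Fold changes on this scale understate those of low genes. On simulated data the test recovered 31% of log2 changes of 0.5, 83.5% of 1 and 94.5% of 2 for this comparison with 14564 genes, all changed genes having at least 2 FPKM. The simulated noise was drawn for each gene alone, without the shifts shared by many genes in these libraries, so the rates may not hold for the real data. The epithelial reference was the geometric mean of 12 genes. Rows naming several genes (340) entered the fit but no list. Members and lists were chosen with earlier results of these data known. Genes to be named were Tnfrsf1b, the members, the 4 highest, the 2 with the smallest p and any called gene of each junction list, the 2 highest of each marker list (of which only Krt19 is printed), and, for the 2 members with the widest range, the 3 genes with the nearest profile; some genes that the rule selects are not reported here. A comparison of protein sequences was planned and not run. Python 3.11.15, pandas 2.3.3 and matplotlib 3.10.9 were used for tables and plots.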

Additional observations from a re-analysis of the deposited data

How the results depend on the processing

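No member was called in any of 15 tested fits of each (150 in all); the lowest adjusted p was 0.14, for Cldn1 without wildtype library 2 (limma). Cldn1, Cldn3, Cldn4, Cldn7, Cldn8 and Cldn15 kept the sign of their log2 difference in all 15, but not its size: leaving out single libraries gave -0.71 to -0.30 for Cldn1, 0.03 to 0.33 for Cldn3, -0.46 to -0.22 for Cldn4, 0.06 to 0.32 for Cldn7, -0.36 to -0.01 for Cldn8 and 0.09 to 0.30 for Cldn15. Other differences close to 0 changed sign. With epithelial reference scaling, values were -0.03 for Cldn2, -0.08 for Cldn23, -0.004 for Tjp1, and -0.01 each for Cldn12, Crb3, Cdh1, Ctnna1 and Gjb1. With the skin covariate they were -0.12 for Cldn2, -0.01 for Cldn23, -0.004 for Tjp1, -0.04 for Cldn12, -0.01 for Epcam, -0.03 for Cdh1 and 0.08 for Mylk, and with median ratio scaling 0.005 for Ctnnb1. Leaving out single libraries gave -0.07 to 0.17 for Cldn2, -0.12 to 0.13 for Cldn23, -0.26 to 0.04 for Ocln, -0.09 to 0.05 for F11r, -0.16 to 0.03 for Klf4 and -0.05 to 0.05 for Ctnnb1.

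A further setting left out wildtype libraries 1 and 3 and knockout library 1, which leaves a lone wildtype library and no test. The differences were then 0.08 for Cldn1, -0.29 for Cldn2, -0.14 for Cldn3, -0.55 for Cldn4 and -0.09 for Cldn7. They were -0.66 for Cldn8, -0.09 for Cldn15, -0.22 for Cldn23, -0.52 for Ocln and -0.08 for Tjp1. This setting keeps wildtype library 2, the highest wildtype library for 9 of 10 members. It also keeps knockout library 2, the lowest knockout library for the same 9, all but Cldn1. The choice of libraries itself thus pulls the values of these genes down, and they do not measure a genotype difference. The count of called genes among all tested was 42; it was 26 with the skin covariate, and leaving out single libraries moved it between 21 and 74 (74 without wildtype library 2, 27 and 22 without wildtype libraries 1 and 3, 21 without knockout library 3). No gene of the 5 other junction lists was called under either scaling, the replicate block or with any single library left out. The replicate block gave 24 called genes and no member. The labels do not say whether libraries with the same replicate number share more than that number. The correlations of their deviations were -0.37, -0.34 and 0.21, and not every library was nearest to its own number. Deviations were taken from the mean of each genotype, so they depend on one another within it, and a shared batch was not tested. The cause of these shifts was not tested.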

Other observations

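Gap junction genes, whose connexin proteins join the cytoplasm of neighbouring cells, held the smallest p-values of the junction lists. None of 10 was called by limma, 3 had an unadjusted p under 0.05 (30% beside 16.2% of all tested genes) and 7 of 10 had lower means in the knockout. Gjb5, a connexin gene also expressed in skin, measured 11.1, 9.22 and 9.54 FPKM in wildtype mice and 13.4, 12.9 and 13.9 FPKM in TNFR2-/- mice, with no overlap (limma, log2 difference 0.40 ± 0.08, Benjamini-Hochberg adjusted p = 0.16). Gjb2, which encodes connexin 26, ran the other way, at 7.10, 6.53 and 9.11 FPKM against 4.45, 4.87 and 5.30 FPKM (-0.54 ± 0.12, adjusted p = 0.18). Gja1, the connexin gene of many cell types in the gut wall, measured 27.7, 19.5 and 27.8 FPKM against 14.5, 18.7 and 20.2 FPKM (adjusted p = 0.28). Its log2 difference of -0.46 was -0.22 with the skin genes as a covariate and -0.001 without wildtype libraries 1 and 3 and knockout library 1. The libraries left out held the highest values and the lowest value of Gja1 itself, so a smaller difference follows from that choice. The part of skin in the Gja1 values was not tested. Gjb1, among the most highly expressed of the list, averaged 27.5 ± 2.10 FPKM in wildtype mice against 29.3 ± 3.32 FPKM in TNFR2-/- mice (SD, n = 3 each).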
